A study of Homo sapiens with 6 samples.

Results

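Translation initiation factors are the proteins that bring a ribosome to the start codon of an mRNA. Their genes were followed in SW480 cells treated with MPM-1, a mitochondria-targeted fluorescent compound, or with DMSO, its solvent. The genes were taken by symbol: EIF followed by a digit from 1 to 6, leaving out the kinases EIF2AK1 to EIF2AK4. This rule found 49 of the 12982 genes in the table, and all 49 were tested.

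SW480 is an established human colorectal adenocarcinoma line, so the results describe 1 cell line, labelled wild type. The cells received DMSO or MPM-1 for 24 h in culture medium with serum and L-glutamine, and there were 3 RNA-seq libraries per treatment. MPM-1 is called WT4 in the labels, and its dose in this experiment is not given in the sources used here. The libraries are numbered 1 to 3 within a treatment, but nothing says that they came from separate cultures. The p-values therefore measure the spread between these libraries, which may be technical.

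Total counts per library lay between 32095456 and 40269820 for DMSO and between 31733667 and 35403841 for MPM-1. The lowest count of any initiation factor in any library was 129, so no member was near the limit of detection. All 7 colorectal epithelial markers that were looked for were in the table, and the keratin gene KRT8 stood at 2124 FPKM in DMSO and at 2517 FPKM in MPM-1. FPKM, in which fragments are scaled for transcript length and library size, allows levels to be compared between genes. Of the 7, 4 were higher, 2 were lower and EPCAM did not pass. KRT18, KRT19, CDH1 and KRT8 had log2 fold changes of 0.89, 0.89, 0.82 and 0.42. CDX2, a transcription factor of intestinal identity, fell by 2.20 and VIL1, an actin-bundling protein of microvilli, fell by 0.88. Of 5 leukocyte markers only CD68 was in the table, with a log2 fold change of 1.08. Of 5 fibroblast and endothelial markers only COL1A1 was, at 0.468 FPKM in DMSO and 0.0942 FPKM in MPM-1. The part of these shifts in the results below was not tested.

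In initiation, eIF2 carries the initiator tRNA to the small ribosomal subunit as a complex with GTP, and eIF2B recharges eIF2 with GTP after each round. The cap-binding complex eIF4F, made of eIF4E, eIF4G and the helicase eIF4A, recruits the mRNA, and eIF3 joins the mRNA to the small subunit. The subunit then scans for a start codon, where eIF1 holds it open and eIF5 prompts eIF2 to hydrolyse its GTP. Cells under stress phosphorylate eIF2, which turns it into an inhibitor of eIF2B, and eIF4E is known to be raised in many colorectal tumors.

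Most initiation factor genes moved by a small amount, and more of them rose than fell. By the quasi-likelihood test of edgeR, with p-values adjusted over all genes after Benjamini and Hochberg, 26 of the 49 members were higher after MPM-1 at an adjusted p under 0.05, which is 53.1%, against 27.7% of all genes tested. Only 9 members were lower, or 18.4%, against 28.8% of all genes. The other 14 did not pass. The median log2 fold change was 0.26 over the members and -0.03 over all genes, and the members ranged from -0.77 for EIF5 to 1.32 for EIF1. With the counts scaled by library size alone, the median of all genes moved to -0.18 and that of the members to 0.11, and 16 members passed as higher and 10 as lower, against 19.9% and 37.5% of all genes in that setting.

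The members are strongly expressed genes, with a median of 74.0 FPKM against 7.34 FPKM over all genes, so a background of strongly expressed genes was added after the data were seen. Among genes whose mean reached 10 FPKM, 39.3% were higher and 25.7% lower, and among the 43 members of that kind 25 were higher and 9 lower, or 58.1% and 20.9%. The median log2 fold change was 0.26 over these 43 members and 0.09 over all genes whose mean reached 10 FPKM. In bulk RNA, fewer cells of a type and less RNA per cell cannot be told apart. The members' share of all counts was between 1.15% and 1.18% in the DMSO libraries and between 1.30% and 1.31% in the MPM-1 libraries. A large part of that gain came from EIF1 alone. It held 18087 of 37534281 counts in DMSO replicate 3 and 40966 of 35403841 in MPM-1 replicate 3. The share therefore does not show a rise across the family.

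Few members changed by a large amount. A gene was called a DEG, a differentially expressed gene, when the adjusted p was under 0.01 and expression differed by 1 or more on the log2 scale in either direction. EIF1 and EIF3C were DEGs with higher expression and no member was a DEG with lower expression. Of all genes 5.58% were higher DEGs and 8.75% lower DEGs. The closer background is the 5538 strongly expressed genes, those that reached 10 FPKM on average. It held 348 higher and 228 lower DEGs, beside 2 and 0 for the 43 members at that level. Counts this small were not tested against either background and do not set the members apart. The log2 fold change was under 0.5 in size for 40 of the 49 members, and 26 of those 40 still passed the test. The share of all genes with changes this small was not computed, so these counts describe the members without setting them apart. The 3 MPM-1 libraries did not overlap the 3 DMSO libraries in 29 members that were higher and in 9 that were lower, against 31% and 33.3% of all genes. Among the 43 members with a mean of at least 10 FPKM, 28 were apart and higher and 9 apart and lower. Among the 5538 genes of that kind, 2318 were apart and higher and 1598 apart and lower.

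**Figure D1:**
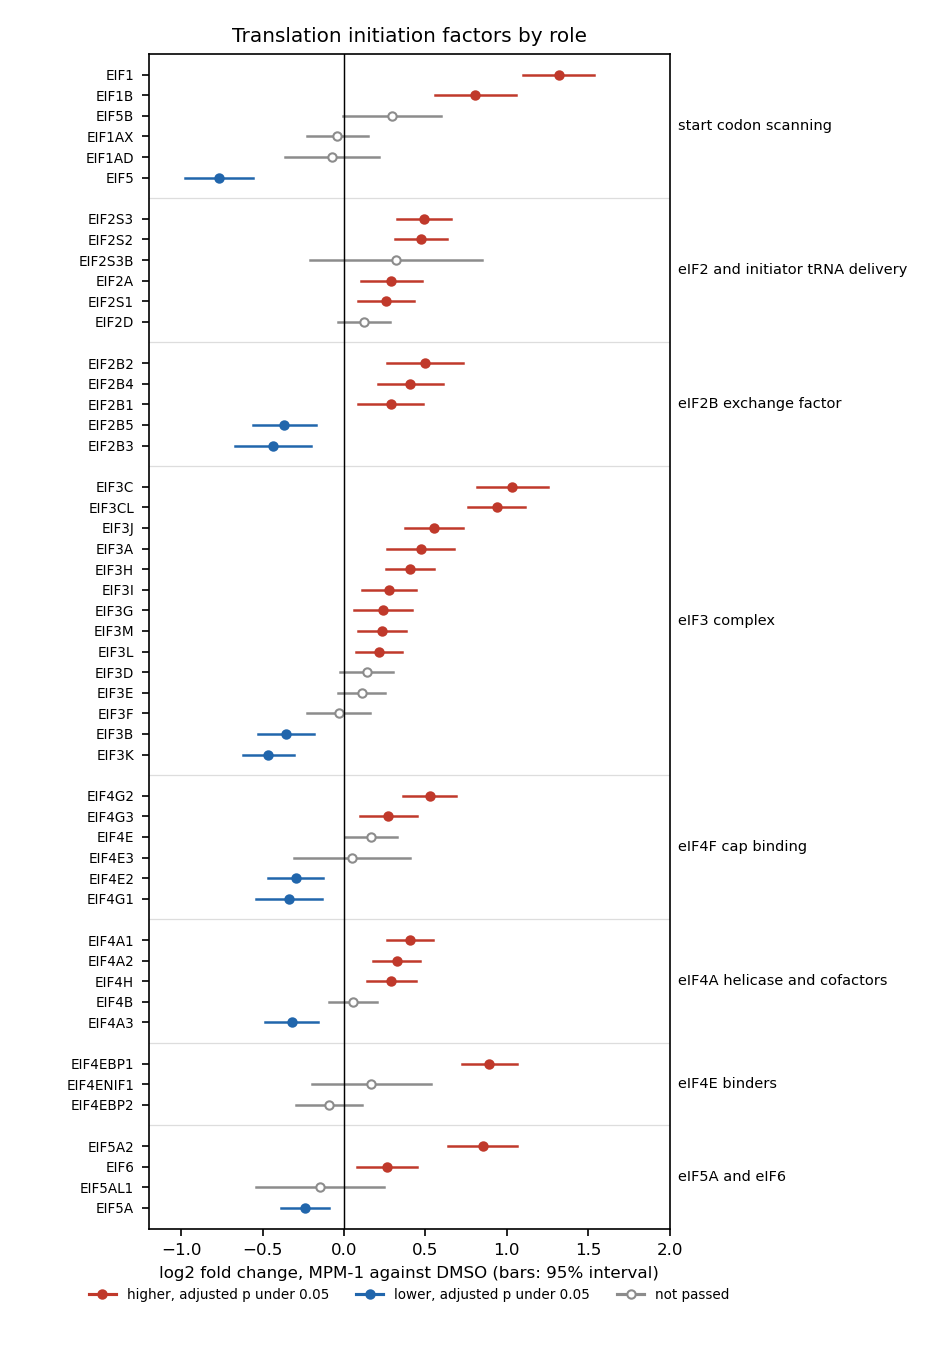
Log2 fold change of MPM-1 against DMSO for each of the 49 initiation factor genes (horizontal axis), grouped by role, with 95% intervals from edgeR as bars. Filled red points passed as higher, filled blue points as lower and open points did not pass; EIF1 lies farthest to the right at 1.32 and EIF5 farthest to the left at -0.77.

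**Figure D2:**
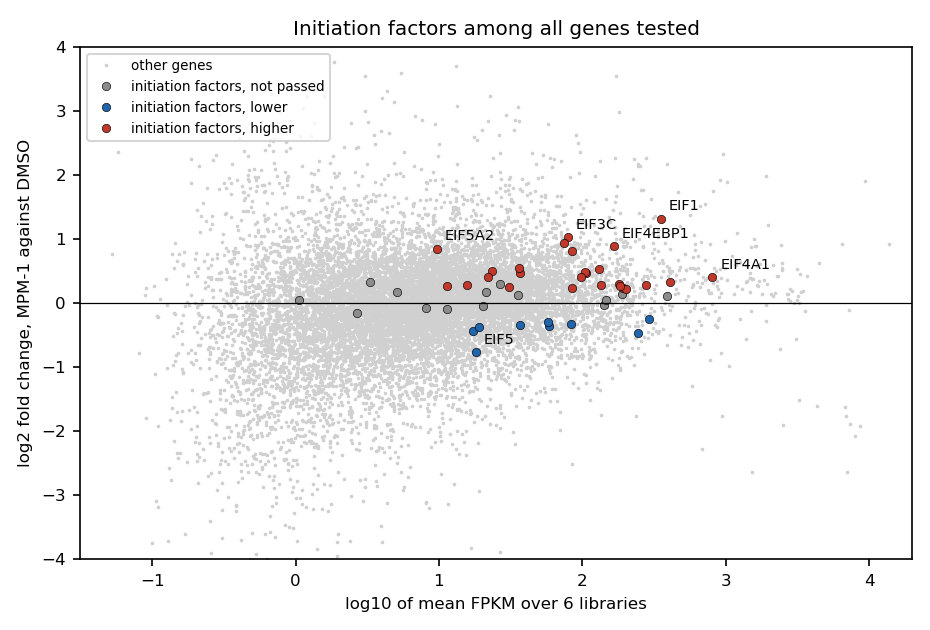
Log2 fold change of MPM-1 against DMSO (vertical axis) against the log10 of mean FPKM over the 6 libraries (horizontal axis) for all genes tested, with initiation factors as large points. The initiation factors lie toward the strongly expressed side, and 48 other genes lie outside the vertical range drawn.

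The factors of start codon scanning held both the largest rise and the largest fall. EIF1 (chr17:41688885-41692668, plus strand, GRCh38) encodes the factor that keeps the scanning ribosome from settling on a poor start codon. Its CPM, counts relative to library totals adjusted by TMM normalization, were 509.9, 452 and 454 in the DMSO libraries and 1291, 1019 and 1220.1 in the MPM-1 libraries. Every MPM-1 library was thus above every DMSO library, and MPM-1 replicate 2 was the lowest of its treatment. The rise was 2.49-fold, a log2 fold change of 1.32 with a standard error of 0.10 (edgeR adjusted p = 6.29e-06).

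EIF1B (chr3:40309684-40312424, plus strand) encodes a close relative of EIF1, and its per-library values were chosen for printing after they were seen. Its CPM were 74.7, 63.6 and 58.6 in DMSO and 123, 101 and 120.1 in MPM-1. The treatments did not overlap here either, and replicate 2 was again the lowest MPM-1 library. EIF1B thus had a log2 fold change of 0.81 with a standard error of 0.11 (edgeR adjusted p = 0.000248).

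EIF5 (chr14:103333544-103345025, plus strand) encodes the protein that triggers GTP hydrolysis on eIF2 at the start codon, the step that EIF1 delays. Its CPM were 127, 137 and 127 in DMSO and 67.5, 84.8 and 77.0 in MPM-1. All MPM-1 libraries were below all DMSO libraries, and replicate 2, the lowest MPM-1 library for EIF1, was the highest for EIF5. EIF5 fell by 0.77 on the log2 scale with a standard error of 0.09 (edgeR adjusted p = 0.000116), the largest fall among the 49 genes.

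The remaining scanning genes did not pass. EIF1AX, which works with EIF1 during scanning, had a log2 fold change of -0.04 with a 95% interval from -0.23 to 0.14. EIF5B, the GTPase that joins the ribosomal subunits, had 0.30 with an interval from -0.01 to 0.60, and its CPM spread widely in DMSO, at 169, 111 and 148. EIF1AD had -0.07, from -0.36 to 0.22.

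Because EIF1 and EIF5 moved in opposite directions, their ratio changed more than either gene. This ratio and those that follow were chosen after the values were seen and are given without a test. The FPKM of EIF1 was 9.72, 8.29 and 9.30 times that of EIF5 in the DMSO libraries and 45.6, 31.0 and 40.6 times in the MPM-1 libraries. The mean ratio rose from 9.10 ± 0.733 to 39.1 ± 7.44 (SD, n = 3), which is 4.29-fold. EIF1 moved from rank 7 to rank 2 of the 49 genes by mean FPKM, behind EIF4A1.

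The start codons of EIF1, EIF1B and EIF5 are shown because EIF1 and EIF5 act on the choice of start codon. The usual vertebrate context has a purine at the third base before the ATG and a G right after it. Each sequence below was read from a GENCODE release 29 transcript on GRCh38, 5′ to 3′, with the start codon in capitals, 9 bases before it and 1 after it. EIF3B, EIF4A1 and EIF5A are shown for comparison.
EIF1: tcgtatcgtATGt
EIF1B: tagtatcgcATGt
EIF3B: gttgggcccATGc
EIF5: taagccaaaATGt
EIF4A1: ctaaggatcATGt
EIF5A: cctcttaaaATGg

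EIF1, EIF1B and EIF3B were the only members with neither a purine at the third base before the ATG nor a G after it, 3 of the 47 members with an ATG start in these transcripts, or 6.38%, against 6.47% of 11706 genes of the table. A purine at that base was found in 42 members (89.4%), against 86.1% of the table. A G after the ATG was found in 23 members (48.9%), against 53.6%. EIF5 has the purine but not the G, and EIF5A has both. Of the 3 without either, EIF1 and EIF1B were higher after MPM-1 and EIF3B was lower, so the members with this context did not share a direction.

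The bases just upstream of EIF1 and EIF1B are shown because these related genes rose together. They are RefSeq sequences on GRCh38.p14, plus strand, ending right before the annotated gene. The searches covered both strands for the CCAAT box, the E-box CACGTG, the cyclic AMP response core TGACGT, the GC box GGGCGG and the stress response element TGATGNAA. Matches are in capitals.
EIF1, chr17:41688635-41688884: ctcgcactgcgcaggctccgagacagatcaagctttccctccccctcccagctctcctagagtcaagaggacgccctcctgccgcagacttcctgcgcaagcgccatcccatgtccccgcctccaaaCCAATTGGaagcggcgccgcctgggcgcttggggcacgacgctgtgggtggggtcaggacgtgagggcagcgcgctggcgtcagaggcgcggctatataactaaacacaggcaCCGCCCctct
EIF1B, chr3:40309457-40309683: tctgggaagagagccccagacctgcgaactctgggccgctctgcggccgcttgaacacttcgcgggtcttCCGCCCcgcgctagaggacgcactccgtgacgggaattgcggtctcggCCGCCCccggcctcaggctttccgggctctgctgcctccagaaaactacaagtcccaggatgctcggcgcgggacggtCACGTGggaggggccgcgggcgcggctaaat

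The window of EIF1 held CCAAT on both strands in overlapping letters, and GGGCGG on the other strand close to the start. The window of EIF1B held CACGTG, which reads the same on both strands, and GGGCGG at a pair of places, so the only motif present in both windows was GGGCGG. Promoter windows of 250 bases were matched for 41 members. CACGTG, which MYC and its relatives can bind, was in 10 of these 41 (24.4%), against 11.4% of 9595 genes of the table and 7.73% of all 27305 genes with a window. It was in 3 of the 19 matched members that passed as higher (15.8%) and in 4 of the 9 that passed as lower (44.4%). The excess was thus not particular to the members that rose. GGGCGG was in 73.2% of the members and 75.9% of the table's genes, CCAAT in 43.9% and 41.6%, TGACGT in 14.6% and 12.6%, and TGATGNAA in 2.44% and 2.20%. These matches describe letters and say nothing of binding.

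All 3 subunits of eIF2 were higher after MPM-1. EIF2S3 (chrX:24054716-24077971, plus strand), the subunit that binds GTP and the initiator tRNA, had CPM of 267, 256 and 249.5 in DMSO and of 386, 343 and 355 in MPM-1. The treatments were apart, with a log2 fold change of 0.49 and a standard error of 0.07 (edgeR adjusted p = 0.00043). EIF2S2, the subunit that contacts EIF5 and eIF2B, had a log2 fold change of 0.47 (standard error 0.07).

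EIF2S1 (chr14:67359997-67386516, plus strand) encodes the subunit that stress kinases phosphorylate, and it changed least of the 3. Its CPM were 122, 131 and 135 in DMSO and 149, 165 and 149.8 in MPM-1. The libraries did not overlap in CPM but did in FPKM, and the log2 fold change was 0.26 with a standard error of 0.08 (edgeR adjusted p = 0.018). With library size alone it was 0.11 (edgeR adjusted p = 0.3).

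EIF2A, which can deliver initiator tRNA by a separate route, had a log2 fold change of 0.29 and passed, and it too was lost with library size alone. EIF2D, a factor of reinitiation and recycling, had 0.12, with an interval from -0.04 to 0.28, and did not pass. EIF2S3B, a near copy of EIF2S3 at 3.12 FPKM in DMSO, had 0.32 with an interval from -0.21 to 0.85 and did not pass. Reads of such copies may be shared with EIF2S3, so the low value is uncertain.

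The 5 subunits of eIF2B all passed the test, and they split. EIF2B1, EIF2B2 and EIF2B4, which form the regulatory core that senses phosphorylated eIF2, were higher, and EIF2B3 and EIF2B5, the pair that carries out the exchange of GDP for GTP, were lower. That the split follows this division was seen in the values and was not a planned comparison. The rises of EIF2B1 and EIF2B4 depended on the scaling, as given with their values.

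EIF2B2 (chr14:75002911-75012366, plus strand) had CPM of 100.1, 77.9 and 77.8 in DMSO and of 119, 122 and 119.8 in MPM-1. DMSO replicate 1 lay above the other DMSO libraries but still below every MPM-1 library. Its log2 fold change was 0.50 with a standard error of 0.10 (edgeR adjusted p = 0.00268). EIF2B4 had a log2 fold change of 0.41, but 0.20 on the log2(FPKM + 1) scale, where it did not pass (limma adjusted p = 0.113). EIF2B1 had 0.29, but 0.13 with library size alone (edgeR adjusted p = 0.26) and 0.13 on the log2(FPKM + 1) scale (limma adjusted p = 0.264), and its call was also lost without DMSO replicate 1 or without DMSO replicate 3. In FPKM the libraries of both genes overlapped between treatments.

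EIF2B3 (chr1:44850522-44986722, minus strand) had CPM of 31.8, 33.5 and 34.5 in DMSO and of 23.8, 27.8 and 22.2 in MPM-1. EIF2B5 (chr3:184135038-184146112, plus strand), the subunit with the catalytic domain, had 51.7, 56.2 and 51.5 in DMSO and 39.2, 44.7 and 39.6 in MPM-1. In both genes the highest MPM-1 library stayed under the lowest DMSO library. EIF2B3 fell by 0.44 on the log2 scale (standard error 0.10, edgeR adjusted p = 0.00591) and EIF2B5 by 0.37 (standard error 0.09, edgeR adjusted p = 0.00499).

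As FPKM within each library, the sum of EIF2B1, EIF2B2 and EIF2B4 was 1.41, 1.23 and 1.21 times the sum of EIF2B3 and EIF2B5 in DMSO. In MPM-1 it was 2.29, 2.14 and 2.39 times. The mean ratio was 1.28 ± 0.111 in DMSO and 2.27 ± 0.124 in MPM-1 (SD, n = 3), and the treatments did not overlap. The 3 eIF2 subunits together stood at 4.96 ± 0.0927 times the sum of EIF2B3 and EIF2B5 in DMSO and at 9.06 ± 0.755 times in MPM-1. A ratio within a library does not depend on how libraries were scaled. The genes of both ratios were grouped after their directions were seen, so the shifts follow from that choice. They are not separate support for the split.

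**Figure D3:**
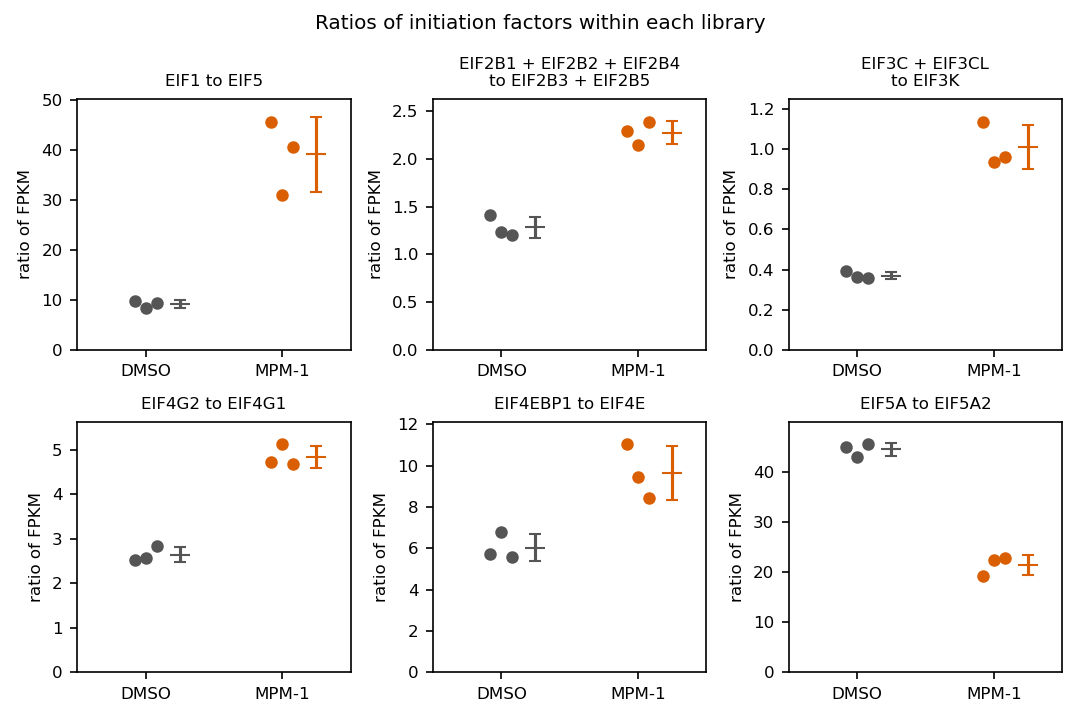
Ratios of FPKM between initiation factors within each library (vertical axes, starting at 0), with 1 point per library and the mean ± SD of 3 libraries beside the points. The 6 panels were picked after the values were seen, and in all 6 the DMSO and MPM-1 libraries are apart. The ratio of EIF4A1 to EIF4A2, in which they overlap, is not drawn. EIF1 to EIF5 went from 9.10 to 39.1 on average, and EIF5A to EIF5A2 from 44.5 to 21.5.

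The eIF3 complex was the largest group, with 14 genes, of which 9 were higher, 2 lower and 3 did not pass. Of all genes 27.7% were higher and 28.8% lower, and of genes whose mean reached 10 FPKM 39.3% and 25.7%. The 9 include both EIF3C and its copy EIF3CL. EIF3C (chr16:28688558-28735730, plus strand), a core subunit that touches EIF1 and EIF5 on the ribosome, rose the most. Its CPM were 162, 175 and 170.0 in DMSO and 395, 306 and 337 in MPM-1, with every MPM-1 library far above DMSO. The log2 fold change was 1.03 with a standard error of 0.10 (edgeR adjusted p = 2.53e-05). Without MPM-1 replicate 1 it was 0.94 and with library size alone 0.88, both under the size that makes a DEG.

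EIF3CL (chr16:28379579-28403879, minus strand) is a near-identical copy of EIF3C. Its CPM were 172, 156 and 164 in DMSO and 334, 297 and 312 in MPM-1, a log2 fold change of 0.94 with a standard error of 0.08 (edgeR adjusted p = 1.19e-05). Counting could split reads between such copies, so the separate levels are uncertain and the values are best read for both together.

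Among the other eIF3 subunits, EIF3A, the scaffold of the complex, had a log2 fold change of 0.47. EIF3J, a loosely bound subunit that sits near the decoding center, had 0.55. EIF3H had 0.40, and EIF3I, EIF3G, EIF3M and EIF3L passed with smaller values between 0.21 and 0.28. All 4 of these smaller rises were lost with library size alone, and EIF3L turned to -0.05 on the log2(FPKM + 1) scale.

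EIF3K and EIF3B moved the other way. EIF3K (chr19:38619082-38636955, plus strand), a peripheral subunit, had CPM of 236, 238 and 255 in DMSO and of 177, 173 and 177 in MPM-1. The MPM-1 libraries were nearly equal and all below DMSO, a log2 fold change of -0.47 with a standard error of 0.07 (edgeR adjusted p = 0.000387). EIF3B, a scaffold subunit that holds EIF3G and EIF3I, fell by 0.36 on the log2 scale.

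The levels of subunits of the same complex therefore shifted against each other. The summed FPKM of EIF3C and EIF3CL was 0.392, 0.361 and 0.358 times that of EIF3K in DMSO and 1.14, 0.935 and 0.962 times in MPM-1. Against EIF3B the mean ratio was 1.60 ± 0.0709 in DMSO and 4.14 ± 0.696 in MPM-1 (SD, n = 3). The summed FPKM of all 14 genes was between 2075 and 2113 in DMSO and between 2094 and 2114 in MPM-1. These sums lack the TMM scaling of the counts, with which the median log2 fold change of the 14 genes was 0.24. Over all genes the summed FPKM was itself lower after MPM-1, between 554700 and 562700 against between 580500 and 601000 in DMSO. A similar sum of FPKM thus does not show that the total of eIF3 mRNA was unchanged. EIF3E, EIF3D and EIF3F did not pass, with log2 fold changes of 0.11, 0.14 and -0.03 and intervals that lay between -0.23 and 0.30.

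Of the cap-binding group, the cap-binding protein itself did not pass. EIF4E (chr4:98871684-98930637, minus strand) had CPM of 139, 133 and 136 in DMSO and of 161, 148 and 149 in MPM-1. The libraries did not overlap in CPM, but the difference was small, with a log2 fold change of 0.17 and a 95% interval from 0.01 to 0.33 (edgeR adjusted p = 0.0733). DESeq2's test put it past the threshold (adjusted p = 0.0439), as did edgeR without MPM-1 replicate 2 (adjusted p = 0.0477).

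The 3 scaffold genes of the eIF4G family did not move together. EIF4G1 (chr3:184314495-184335358, plus strand), the main scaffold that links the cap to the ribosome, had CPM of 192, 217 and 191 in DMSO and of 175, 147 and 153 in MPM-1. The treatments did not overlap, and EIF4G1 fell by 0.34 on the log2 scale with a standard error of 0.09 (edgeR adjusted p = 0.0103). Without MPM-1 replicate 3 the adjusted p was 0.0575, and the log2 fold change -0.30.

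EIF4G2 (chr11:10797050-10809110, minus strand) encodes a related scaffold, also called DAP5, that lacks the site for eIF4E and serves initiation without it. Its CPM were 400.3, 458 and 445 in DMSO and 641, 619 and 617 in MPM-1. The treatments were far apart, with a log2 fold change of 0.53 and a standard error of 0.07 (edgeR adjusted p = 0.000258). EIF4G3, a scaffold that does bind eIF4E, had 0.27 and was lost with library size alone.

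By FPKM, EIF4G2 stood at 2.53, 2.58 and 2.84 times EIF4G1 in DMSO and at 4.73, 5.12 and 4.68 times in MPM-1. The ratio of EIF4G3 to EIF4G1 went from 0.244 ± 0.0169 to 0.401 ± 0.0188 (SD, n = 3). EIF4E2, a cap-binding protein that represses translation, fell by 0.30 on the log2 scale in counts, but its FPKM did not pass, with -0.05 on the log2(FPKM + 1) scale. EIF4E3 was the lowest member, at 1.09 FPKM in DMSO and 1.01 in MPM-1, and did not pass.

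The eIF4A helicases unwind mRNA ahead of the ribosome. EIF4A1 (chr17:7572706-7579005, plus strand) was the highest member in both treatments, at 715 ± 25.3 FPKM in DMSO and 899 ± 95.5 FPKM in MPM-1 (SD, n = 3). Its CPM were 1116, 1139.9 and 1182 in DMSO and 1528, 1567 and 1449 in MPM-1, without overlap. The log2 fold change was 0.40 with a standard error of 0.06 (edgeR adjusted p = 0.000508). A readthrough gene of the table that shares its strand, SENP3-EIF4A1, held only 2.48 CPM in DMSO and 1.81 in MPM-1.

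EIF4A2 (chr3:186783205-186789900, plus strand), the second helicase of eIF4F, moved with it. Its CPM were 735, 699 and 715 in DMSO and 884, 873 and 931 in MPM-1, with a log2 fold change of 0.32 and a standard error of 0.06 (edgeR adjusted p = 0.00198). The ratio of EIF4A1 to EIF4A2 by FPKM was 1.88 ± 0.0788 in DMSO and 2.07 ± 0.276 in MPM-1 (SD, n = 3), and here the libraries overlapped.

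EIF4A3 (chr17:80135214-80147183, minus strand) resembles these helicases in name and sequence but is a core protein of the exon junction complex left on spliced mRNA. Its CPM were 159.7, 153 and 144 in DMSO and 125, 119 and 122 in MPM-1. It fell by 0.32 on the log2 scale with a standard error of 0.07 (edgeR adjusted p = 0.00417), and all MPM-1 libraries were below DMSO. Of the helicase cofactors, EIF4H had a log2 fold change of 0.29 and passed, but with library size alone it had 0.14 and did not (edgeR adjusted p = 0.0734), nor did it on the log2(FPKM + 1) scale (limma adjusted p = 0.0556). EIF4B had 0.06 with an interval from -0.09 to 0.20 and did not pass.

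EIF4EBP1 encodes 4E-BP1, the protein that binds eIF4E and keeps it from eIF4G until mTORC1 phosphorylates it. Its CPM were 131, 115 and 126 in DMSO and 226, 239 and 227 in MPM-1. No library of either treatment came near the other group, and the log2 fold change was 0.89 with a standard error of 0.08 (edgeR adjusted p = 1.46e-05). By FPKM, EIF4EBP1 stood at 5.71, 6.80 and 5.59 times EIF4E in DMSO and at 11.0, 9.44 and 8.45 times in MPM-1.

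The other binders of eIF4E did not pass. EIF4EBP2 (chr10:70404379-70428618, plus strand), a second inhibitor of the same kind, had CPM of 80.3, 87.2 and 94.4 in DMSO and of 86.2, 74.3 and 85.0 in MPM-1, which overlap. Its log2 fold change was -0.09 with an interval from -0.30 to 0.11 (edgeR adjusted p = 0.404). With library size alone it was -0.25 and passed (edgeR adjusted p = 0.0401). EIF4ENIF1, which carries eIF4E into the nucleus, had 0.17 with an interval from -0.20 to 0.53.

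The genes of eIF5A and eIF6 act beyond the start codon. EIF5A (chr17:7306999-7312463, plus strand), which carries the rare amino acid hypusine and helps the ribosome through difficult stretches, had CPM of 463, 474 and 495 in DMSO and of 394, 405 and 413 in MPM-1. Without overlap between treatments, it fell by 0.24 on the log2 scale with a standard error of 0.07 (edgeR adjusted p = 0.0111). Its relative EIF5A2 (chr3:170888415-170908693, minus strand) had 38.7, 41.1 and 40.9 in DMSO and 82.3, 68.1 and 67.4 in MPM-1. EIF5A2 rose with a log2 fold change of 0.85 and a standard error of 0.09 (edgeR adjusted p = 6.48e-05).

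EIF5A2 remained the minor form. EIF5A stood at 45.0, 43.0 and 45.5 times the FPKM of EIF5A2 in DMSO and at 19.1, 22.4 and 22.8 times in MPM-1. In FPKM, EIF5A went from 329 ± 15.9 to 254 ± 0.826 and EIF5A2 from 7.40 ± 0.418 to 11.9 ± 1.19 (SD, n = 3). EIF5AL1, a near copy of EIF5A at 2.98 FPKM in DMSO, did not pass, and reads may be shared between them.

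EIF6 (chr20:35278911-35284985, minus strand) keeps the large ribosomal subunit from joining the small one too early. Its CPM were 233, 199.5 and 217 in DMSO and 244, 270.4 and 263 in MPM-1, higher in each MPM-1 library by a small margin. The log2 fold change was 0.26 with a standard error of 0.08 (edgeR adjusted p = 0.0216). This call did not hold with library size alone (adjusted p = 0.244). Nor did it hold in edgeR without DMSO replicate 2 (adjusted p = 0.0885), without replicate 3 of DMSO (0.0577) or without replicate 3 of MPM-1 (0.0579).

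**Figure D4:**
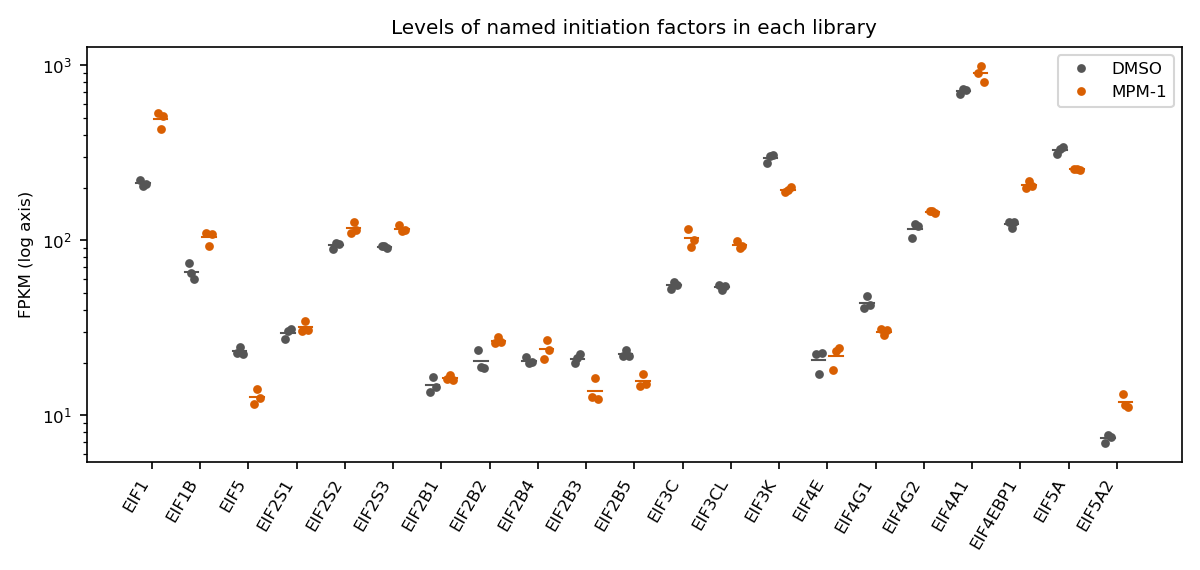
FPKM of 21 initiation factor genes in each library (vertical log axis), with 3 points per treatment and a line at the mean. EIF4A1 is the highest gene in both treatments, EIF1 rises from a mean of 211 to 493 FPKM, and EIF5A2 is the lowest gene drawn.

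Across the 14 members that did not pass, the log2 fold change was at most 0.32 in size. For the 9 of them that reached 10 FPKM, every 95% interval lay between -0.30 and 0.60. Changes within that range remain possible for these genes, since missing the threshold does not show that levels were equal. In the 13 alternatives tried, 15 of the higher members and 7 of the lower members passed each time. These were EIF1, EIF1B, EIF2S2, EIF2S3, EIF2B2, EIF3A, EIF3C, EIF3CL, EIF3H, EIF3J, EIF4A1, EIF4A2, EIF4G2, EIF4EBP1 and EIF5A2 as higher, and EIF5, EIF2B3, EIF2B5, EIF3B, EIF3K, EIF4A3 and EIF5A as lower.

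The deposited FPKM gave a more downward picture than the scaled counts. Of the 29 members whose libraries were apart and higher in CPM, 17 were also apart in FPKM, and of the 9 that were lower, 8 were. The log2 fold change in CPM exceeded that in FPKM by a median of 0.15, and the difference ranged from -0.24 for EIF4E2 to 0.26 for EIF3L. According to the annotation, 20 members overlap another gene of the table, 19 of them only on the opposite strand. Whether the counting used strand is not given in the sources used here, so reads of such partners cannot be told apart from those of the members. EIF1 and EIF5 overlapped no other gene of the table among those compared. Small RNA genes were left out of this comparison, and the 855 genes without an Ensembl identifier had no annotated position to compare.

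The counts in the following lists stand against 27.7% of all genes higher and 28.8% lower. The partners of initiation, 19 genes that act on these factors or on the mRNA ends, had a median log2 fold change of 0.01, with 4 higher, 2 lower and 13 not passed. MKNK2, a kinase that phosphorylates eIF4E, had 0.70. PAIP1 and PABPC1, which join the poly(A) tail to eIF4F, had 0.58 and 0.41, and PAIP2, an inhibitor of that link, had 0.32. PAIP2B, a relative of PAIP2, fell by 0.70, and PDCD4, an inhibitor of eIF4A, fell by 0.38.

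Of 10 genes upstream or downstream of eIF2 phosphorylation, 4 were higher, all of them DEGs, 1 was lower and 5 did not pass. Of the 4, only PPP1R15A acts on the phosphorylation itself, while ATF4, DDIT3 and TRIB3 lie downstream. PPP1R15A, which brings a phosphatase to eIF2, had CPM of 81.7, 58.9 and 64.2 in DMSO and of 496, 291 and 367 in MPM-1, a log2 fold change of 2.50 with a standard error of 0.19. ATF4, whose mRNA is translated when eIF2 is phosphorylated, went from 428, 400.4 and 417 CPM to 960.3, 779.8 and 819.7 CPM, a log2 fold change of 1.04. DDIT3 and TRIB3, targets of ATF4, had 2.98 and 1.99. DDIT3 went from 44.5, 35.1 and 41.6 CPM to 225, 398 and 333 CPM, a wide spread in MPM-1. TRIB3 went from 144, 127 and 125 CPM to 471, 580 and 519 CPM.

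Of the eIF2 kinases, EIF2AK4, which senses uncharged tRNA, was lower, with CPM of 57.1, 66.2 and 59.7 in DMSO and of 49.2, 46.2 and 47.2 in MPM-1. EIF2AK1, EIF2AK2 and EIF2AK3, which respond to heme or mitochondrial stress, double-stranded RNA and unfolded protein, did not pass, with log2 fold changes of 0.16, 0.20 and 0.21. RNA levels do not show whether any kinase was active or whether eIF2 was phosphorylated.

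The factors of elongation and termination had a median log2 fold change of 0.31, with 8 of 14 higher, 1 lower and 5 not passed. Beside these stand 27.7% and 28.8% of all genes, and 39.3% and 25.7% of genes whose mean reached 10 FPKM. The median level of this list was 53.6 FPKM, so the second pair is the closer background. EEF1B2, the exchange factor that recharges the carrier of aminoacyl-tRNA, was a DEG, at 401, 377 and 429 CPM in DMSO and 844, 876 and 802 CPM in MPM-1. The carrier EEF1A1 had 0.91 and the release factor ETF1 had 0.65. EEF2K, the kinase that inhibits elongation, was the lower gene, a DEG that went from 20.5, 22.2 and 17.8 CPM to 7.29, 7.41 and 7.89 CPM.

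The translation factors of mitochondria, a separate set encoded in the nucleus, had a median log2 fold change of -0.13, with 1 of 9 higher, 4 lower and 4 not passed, beside the same 27.7% and 28.8% of all genes. GFM2, which recycles mitochondrial ribosomes, had 0.27. The initiation factor MTIF2 fell by 0.53, the elongation factors TUFM and TSFM fell by 0.58 and 0.79, and the release factor MTRF1 fell by 0.56. The difference between lists was not tested.

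**Figure D5:**
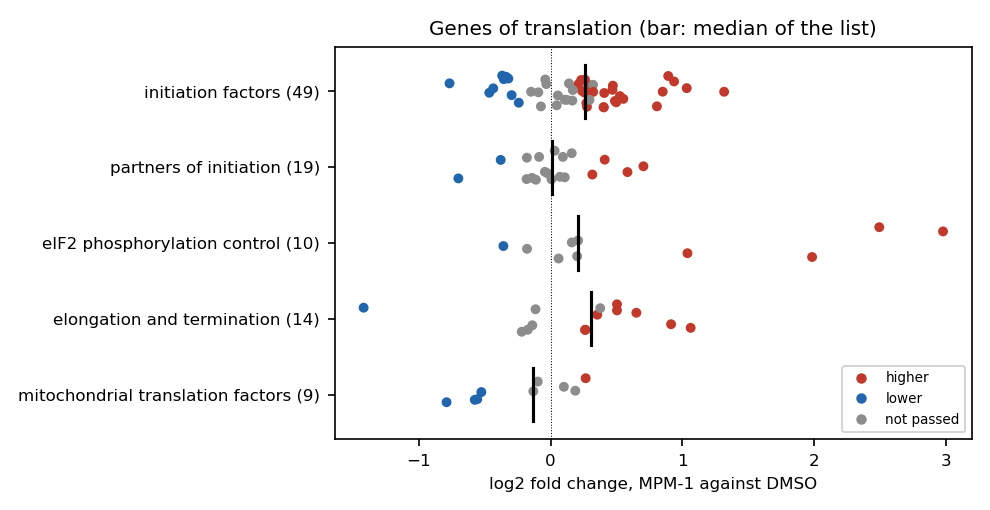
Log2 fold change of MPM-1 against DMSO (horizontal axis) for each gene of the initiation factors and of 4 other lists of translation genes, with a bar at each list's median and colors for genes that passed as higher, as lower or not at all. The medians are 0.26 for the initiation factors, 0.31 for elongation and termination and -0.13 for the mitochondrial factors.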

How the data were processed

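RNA-seq libraries of SW480 cells given DMSO or MPM-1 for 24 h were compared, 3 per treatment, grouped by their labels. The authors deposited 1 table with the whole-number count of every gene in each library, without normalization, and its FPKM, which the authors scaled for length and library size. The submitters' processing notes name HISAT2, DESeq2 and the mouse build mm10, although the gene identifiers are human; versions and counting settings are not given in the sources used here. The log2 fold changes and FDR (adjusted p-value) of the authors' own comparison, deposited in the same table, were not used. The lowest total count of a gene was 115, and 855 genes carry no Ensembl identifier.

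The main test was the quasi-likelihood test of edgeR 4.0.16 in R 4.3.3 with TMM scaling, fitted on all 12982 genes without covariates and tested on simulated data. Alternatives were DESeq2 1.42.0 (its test, and its size factors in edgeR), library size alone, a mean of at least 50 counts, limma 3.58.1 on log2(FPKM + 1) and log2(FPKM + 0.1), the replicate number as a block, and leaving out each library. Fold changes on the FPKM scale understate those of low genes. Coordinates came from GENCODE release 29. The members, role lists and other gene lists were chosen with earlier results of these data known. Per-library values were given for DEGs among the translation genes and for the largest rise and fall that passed in each role. They were also given for EIF4E, EIF4A1, EIF4A2, EIF4G1, EIF2S1, EIF2B5, EIF4EBP1, EIF4EBP2, EIF5A and EIF6. Others with per-library values were chosen after their values were seen.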

Additional observations from a re-analysis of the deposited data

How the results depend on the processing

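The number of higher members was 26 in the main test, 16 with library size alone and 15 with limma on either FPKM scale, where pseudocounts of 1 and 0.1 gave the same number. Of all genes, 27.7% were higher in the main test, 19.9% with library size alone, and 19.2% and 19.1% on the FPKM scales. Members called as higher DEGs were 2, but 1 with library size alone and 1 on either FPKM scale, because EIF3C came under the size required. The median log2 fold change of the members was 0.26, but 0.1073 with library size alone, 0.1065 on the log2(FPKM + 1) scale and 0.1096 on the log2(FPKM + 0.1) scale, where the medians of all genes were -0.18, -0.13 and -0.17. Library size alone kept 25 of the 35 calls and FPKM 23, and no called member was called in the opposite direction in any alternative. DESeq2's size factors, DESeq2's test and the filter at 50 counts kept all 35 calls.

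Leaving out each library in turn kept between 29 and 35 of the 35 calls, and the members' median ranged from 0.2135 (without DMSO replicate 2) to 0.2872. The number of higher DEGs ranged from 1, without MPM-1 replicate 1, to 3, without MPM-1 replicate 2. Without DMSO replicate 3 the calls of EIF2A, EIF2B1, EIF3G, EIF3L, EIF4G3 and EIF6 were lost.

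With the replicate number as a block, all 35 calls were kept, with 26 higher and 9 lower members and a median of 0.2574. The labels do not say that the numbers pair the libraries. Deviations from the treatment means had correlations of 0.021, 0.114 and -0.074 between same-numbered libraries. Between differently numbered libraries they lay between -0.13 and 0.115, so same-numbered libraries were no more alike.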
